A study of Mus musculus with 21 samples.

Results

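Cathepsins are proteases of the lysosome, and 10 of their genes are described here: Ctsa, Ctsb, Ctsc, Ctsd, Ctse, Ctsh, Ctsk, Ctsl, Ctss and Ctsz. They were found by matching these symbols to the Ensembl mouse gene identifiers of the count and FPKM tables, and each symbol matched 1 of the 55401 genes in the count table. All 10 are followed across 6 groups of mice.

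RNA was sequenced from the forebrains of 21 mice. The parental groups E2H, E3H and E4H (3 mice each) carry human APOE2, APOE3 or APOE4 on both chromosomes, in place of mouse Apoe, on a C57BL6 background and were 9 to 10 months old. The 3 PS19 groups (4 mice each), labelled PS/E2H, PS/E3H or PS/E4H after these lines, have the same homozygous APOE alleles and are also heterozygous for the PS19 transgene, which encodes human tau with the P301S mutation under the mouse prion promoter. PS19 mice were kept on a B6/C3H background, were crossed into the APOE lines, and were killed when their hindlimbs were paralyzed. All 6 groups therefore carry a human APOE allele in place of mouse Apoe. Because the PS19 and parental groups differ in the transgene, paralysis and strain background, these cannot be told apart in any comparison of PS19 with parental mice. The study describes the parental mice as age-matched, but the median times to paralysis that it reports for the 3 PS19 genotypes all lie above 10 months. The ages of single PS19 mice are not given in the sources used here. A part of age therefore cannot be told apart either. The study reports a longer median time to paralysis in PS/E3H than in PS/E2H and PS/E4H mice. Among PS19 groups, and where the PS19 change is compared between lines, age therefore cannot be told apart from the APOE allele. The mice were male except for 1 female in E4H, 1 in PS/E2H and 2 in PS/E4H, and which mice these were is not given in the labels, so sex was not part of any fit.

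Libraries held 59265459 to 75932183 counts. The forebrain markers Emx1 and Neurod6 were detected in each group, Emx1 at 3.24 to 5.50 FPKM in parental mice and 2.88 to 4.82 FPKM in PS19 mice, and Neurod6 at 25.5 to 34.3 and 13.9 to 24.9 FPKM, ranges that did not overlap. E2H replicate 2 stood apart from the other E2H mice, with a chi-square per gene of 62.8 and 70.8 against them, where these differed from each other by 18.4. PS/E3H replicate 1 also stood apart, at 43.9 to 48.3 against the other PS/E3H mice, which differed from each other by 21.5 to 31.7. The largest value, 73.1, was between PS/E2H replicates 2 and 3. FPKM, the number of fragments scaled for transcript length and sequencing depth, is used for levels, and levels of different genes are compared in FPKM alone.

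Cathepsins break down proteins delivered to lysosomes by endocytosis, phagocytosis and autophagy. They fall into 3 catalytic classes: the aspartic proteases encoded by Ctsd and Ctse, the cysteine proteases encoded by Ctsb, Ctsl, Ctss, Ctsk, Ctsh, Ctsc and Ctsz, and the serine carboxypeptidase encoded by Ctsa. In the brain, neurons and glia all use cathepsins B, D and L, whereas cathepsin S is known mainly from microglia and other antigen-presenting cells, where it cleaves the invariant chain of MHC class II. Most cathepsins are made as inactive precursors, reach the lysosome through mannose-6-phosphate tags, and are held in check by cystatins once they leave it.

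Of the 10 genes, 6 share a chromosome with another member. Ctsk (ENSMUSG00000028111, chr3:95499256-95509362) and Ctss (ENSMUSG00000038642, chr3:95526786-95556403) are neighbours on the plus strand of chromosome 3, 17423 bases apart in GRCm38. Ctsd (ENSMUSG00000007891, chr7:142375911-142388038, minus strand) shares chromosome 7 with Ctsc (ENSMUSG00000030560, chr7:88278085-88310888), and Ctsa (ENSMUSG00000017760, chr2:164832873-164841032) shares chromosome 2 with Ctsz (ENSMUSG00000016256, chr2:174427493-174439039). The sequences before the start sites of Ctss and Ctsk are shown because Ctss rose in PS19 mice and its neighbour did not pass the test, and that of Ctsd because it was the most abundant member. They are RefSeq sequences of build GRCm38.p6, 5′ to 3′ on the strand of the gene, in which capitals mark matches to CACGTG (an E-box, the core of the element read by the lysosomal regulator TFEB) or, on either strand, to GAGGAA, the purine core that many Ets factors such as the macrophage factor PU.1 bind. The 250 bases before Ctss and before Ctsk are complete, and for Ctsd only the 39 bases at the far end of the window, which lie outside every GENCODE exon, are given.
Ctss, chr3:95526536-95526785, plus strand: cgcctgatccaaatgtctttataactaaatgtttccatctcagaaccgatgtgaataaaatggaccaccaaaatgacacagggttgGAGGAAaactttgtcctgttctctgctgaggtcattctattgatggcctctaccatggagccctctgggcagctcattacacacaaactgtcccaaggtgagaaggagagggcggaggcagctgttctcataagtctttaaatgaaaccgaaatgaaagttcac
Ctsk, chr3:95498960-95499209, plus strand: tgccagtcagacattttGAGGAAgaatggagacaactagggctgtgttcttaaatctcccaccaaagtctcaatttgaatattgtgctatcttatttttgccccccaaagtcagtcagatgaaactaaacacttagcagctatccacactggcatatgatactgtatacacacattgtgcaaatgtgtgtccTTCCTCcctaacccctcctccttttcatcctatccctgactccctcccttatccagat
Ctsd, chr7:142388039-142388077, minus strand: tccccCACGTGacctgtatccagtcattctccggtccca

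RefSeq windows were matched for 7 of the 10 genes, and Ctsb, Ctse and Ctsh were not among them. Over 250 bases, the Ctsd window held 2 matches to CACGTG, which began 245 and 98 bases before the start, the Ctsl window held 1, and 1 of the 2 starts listed for Ctsa held 1. Of the 250 bases, 39 lay outside every GENCODE exon for Ctsd, 77 and 86 for the 2 Ctsa windows, and 202 for Ctsl. The Ctsd match at 98 bases therefore lies in an exon, and the Ctsl window lies inside the annotated gene. CACGTG occurs in 6.02% of the 32851 windows of this length. GAGGAA occurred once before Ctss, on 2 occasions before Ctsk and on 2 before Ctsc, and it is present in 23.3% of all windows. Ctss and Ctsk therefore both held the motif, and the Ctsz window held neither. A match describes letters in the window and does not show that a factor binds there.

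In parental mice Ctsd was the most abundant member, followed by Ctsb, Ctss, Ctsz, Ctsa and Ctsl, and Ctsh, Ctsk, Ctsc and Ctse were low. Mean FPKM in E3H mice was 181 ± 6.47 (SD, n = 3) for Ctsd, 107 ± 5.43 for Ctsb, 57.7 ± 2.97 for Ctss, 28.2 ± 1.24 for Ctsz, 21.6 ± 1.04 for Ctsa and 15.1 ± 0.824 for Ctsl. The 4 low members had means of 2.91 ± 0.425 for Ctsh, 2.21 ± 0.154 for Ctsk, 1.77 ± 0.172 for Ctsc and 0.0172 ± 0.0298 for Ctse. The ranges of neighbours in this order did not overlap in any parental group, except for Ctsk and Ctsc in E2H mice and Ctsh and Ctsk in E4H mice.

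**Figure D1:**
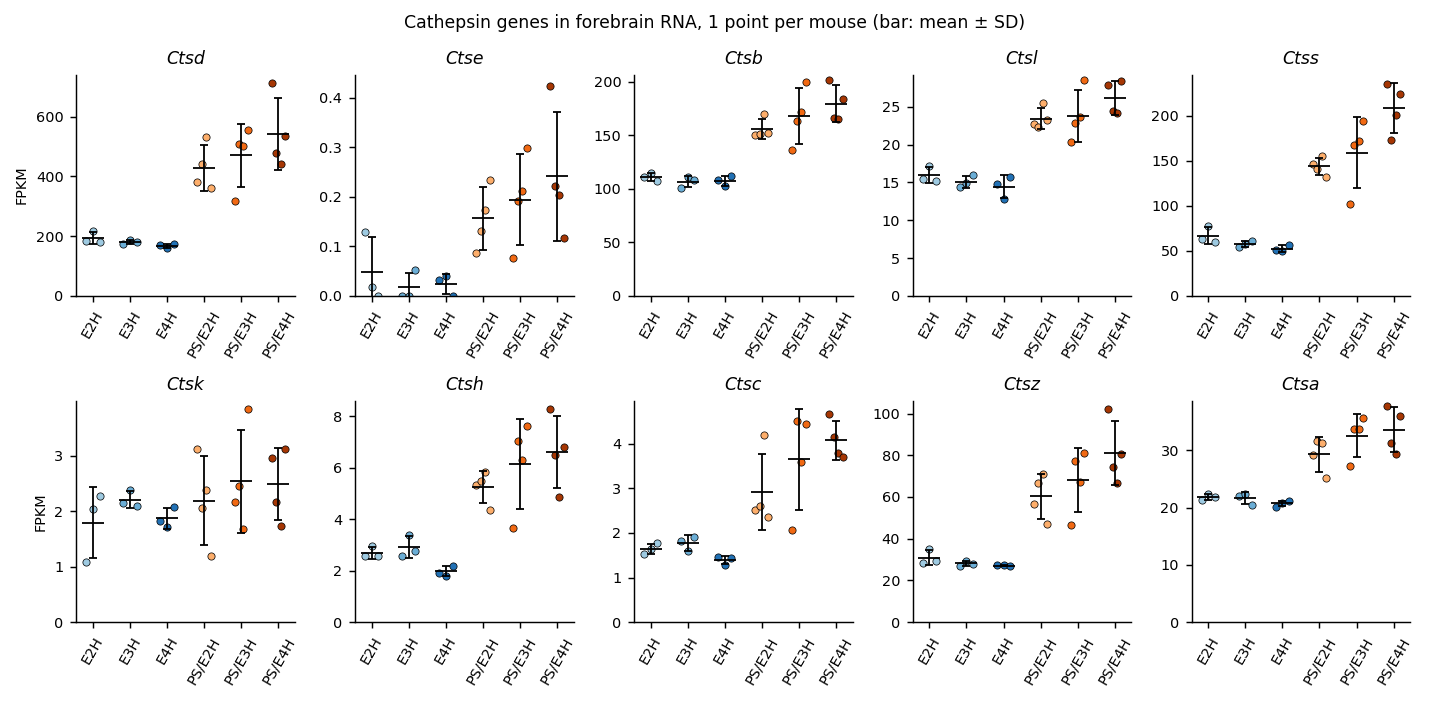
FPKM (y axis, linear, each panel with its own scale) of the 10 cathepsin genes in the 6 groups (x axis), with 1 point per mouse and a bar for the mean ± SD, where the lower bars of Ctse reach below the axis. Every PS19 mouse lies above every mouse of its parental line for 8 genes in PS/E2H, 9 in PS/E3H and 9 in PS/E4H, and the Ctsk values of PS19 and parental mice overlap in each line.

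The order shifted in PS19 mice. Ctss moved level with Ctsb: mean FPKM was 156 ± 9.30 for Ctsb and 144 ± 9.90 for Ctss in PS/E2H (n = 4), 168 ± 26.1 and 159 ± 39.6 in PS/E3H, and 179 ± 17.3 and 209 ± 27.9 in PS/E4H, and the 2 ranges overlapped in each of these groups. Ctsc rose past Ctsk, with means of 4.08 ± 0.439 and 2.49 ± 0.654 in PS/E4H, where the ranges did not overlap, while in PS/E2H and PS/E3H they did.

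The summed FPKM of the 10 genes had a median of 430.5 in E2H, 421 in E3H and 398 in E4H mice, and of 832, 985 and 1031 in the PS19 mice of the same lines. Its make-up changed as well. Ctsd made up 42.0 to 44.1% of the sum in parental mice and 47.0 to 53.5% in PS19 mice. The share of Ctsb was 23.4 to 27.3% in parental and 15.1 to 20.7% in PS19 mice. Ctss took 12.8 to 15.9% in parental mice and 15.5 to 21.4% in PS19 mice, so the ranges of Ctsd and Ctsb were separate and those of Ctss met. These shares are a description without a test.

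**Figure D2:**
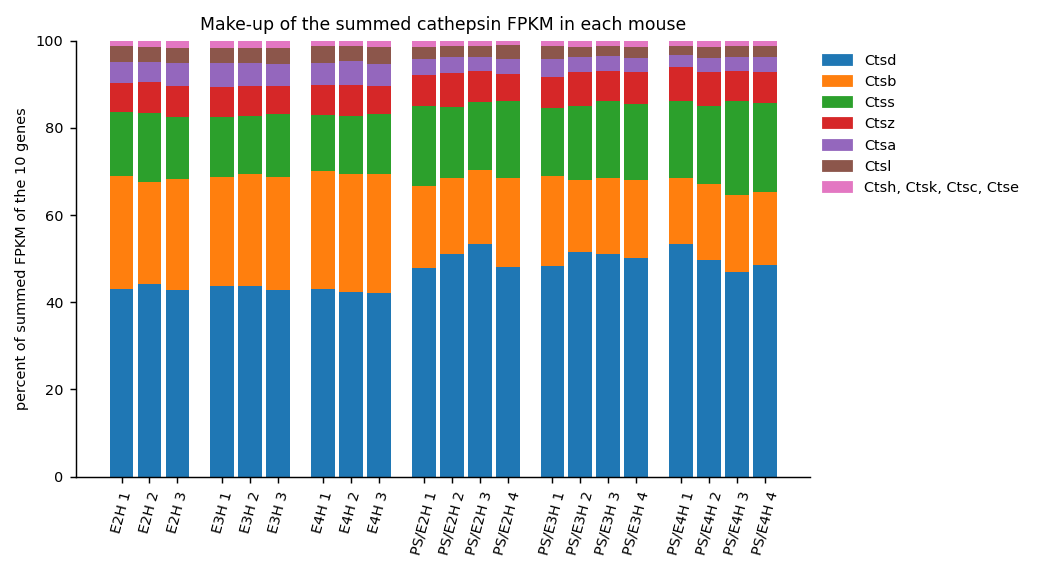
Percent of the summed FPKM of the 10 genes taken by each gene (y axis, 0 to 100) in each of the 21 mice (x axis, group and replicate number), with Ctsh, Ctsk, Ctsc and Ctse combined. The Ctsd segment is 42.0 to 44.1% in the parental mice and 47.0 to 53.5% in the PS19 mice, and the Ctsb segment is smaller in each PS19 mouse than in each parental mouse.

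The comparison of PS19 with parental mice asks which cathepsin transcripts differ in paralyzed tau mice within each APOE line. It gave higher cathepsin expression in all 3 lines, with the aspartic protease gene Ctsd and the microglial gene Ctss called at the largest folds in PS/E2H and PS/E3H mice. With edgeR's quasi-likelihood test and a Benjamini-Hochberg adjusted p under 0.05 over all genes, 6 of 10 members rose and 0 fell in PS/E2H over E2H, where 0.669% of the 20617 genes tested rose and 0.0825% fell. In PS/E3H over E3H 8 rose and 0 fell, against 3.35% of genes that rose and 2.02% that fell, and in PS/E4H over E4H 9 rose and 0 fell, against 8.62% and 6.98%. Ctse is among the 9 and had passed the count filter through PS19 mice alone, and of the other 9 members 8 rose in PS/E4H. The median log2 fold change of the 10 genes was 0.86, 1.08 and 1.57 in the 3 lines, where that of all genes was -0.015, -0.0043 and -0.0023. With the added limit of a 2-fold change, 2, 5 and 6 members passed, and 0.451%, 1.2% and 2.4% of all genes did so in the higher direction. Without Ctse, 2, 5 and 5 members passed this limit, and the median log2 fold changes were 0.80, 1.06 and 1.55.

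In the fit of all 21 mice with the APOE line as a covariate, 9 of 10 members rose and 0 fell (11.9% of 21787 genes rose and 10.4% fell), 6 of them by at least 2-fold (2.26% of genes), with a median log2 fold change of 1.20 against -0.0075 over all genes. Of the 9 members other than Ctse, a set chosen after the data were seen, 8 rose, 5 of them by at least 2-fold, with a median of 1.14. Ctsk was the member that did not pass in any of these 4 comparisons. The groups did not overlap in FPKM, with each PS19 mouse higher, for 8 members in PS/E2H, 9 in PS/E3H and 9 in PS/E4H (Ctse included in both), where 7.43%, 7.56% and 14.1% of all genes behaved in this way. In bulk tissue, a change in the number of cells of a type and a change in RNA per cell cannot be told apart.

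**Figure D3:**
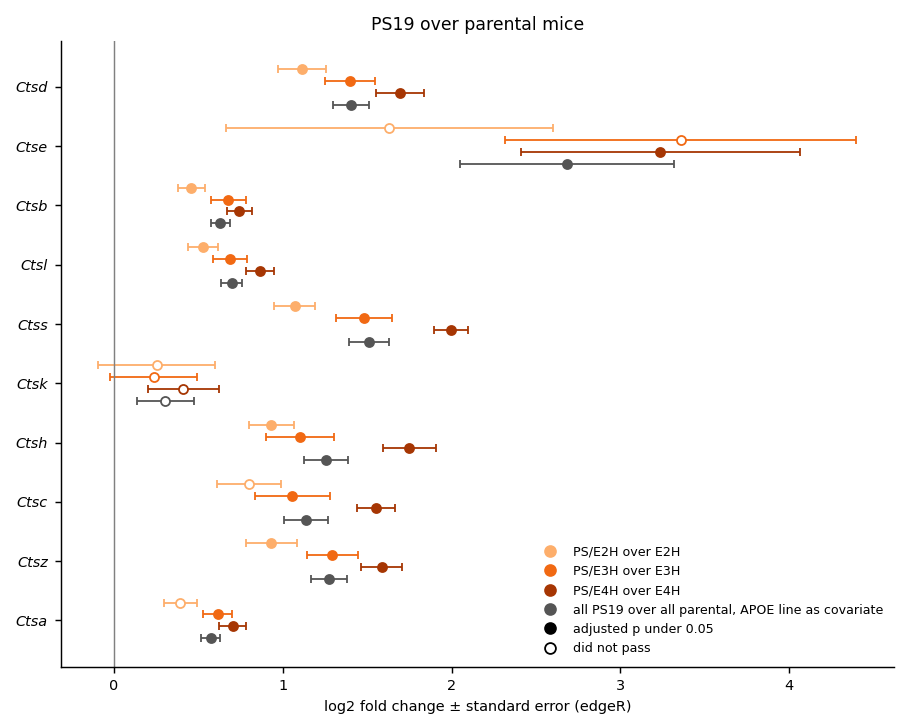
log2 fold change ± standard error (x axis, edgeR) of the 10 genes (y axis) in PS19 over parental mice, for each APOE line and for all 21 mice with the APOE line as covariate, where filled points passed an adjusted p of 0.05. All points lie above 0, Ctsk is open in all 4 fits, and the points of PS/E4H lie to the right of those of PS/E2H for each gene.

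Among the aspartic proteases, Ctsd encodes the main endopeptidase of the lysosome. Its FPKM was 185, 216 and 179 in E2H, 175, 188 and 181 in E3H, and 171, 160.3 and 172 in E4H mice. In PS/E2H mice it was 381, 442, 532 and 359.9, in PS/E3H mice 318, 509.9, 502 and 557, and in PS/E4H mice 714, 477, 441 and 535. The lowest PS19 mouse, in PS/E3H, was still above the highest parental mouse, in E2H, and the spread among PS19 mice was several times that among parental mice. Ctsd rose by a log2 fold change of 1.11 ± 0.14 (SE; 2.17-fold; adjusted p = 0.0092, edgeR) in PS/E2H, 1.40 ± 0.15 (2.64-fold; adjusted p = 0.00205) in PS/E3H and 1.69 ± 0.14 (3.24-fold; adjusted p = 0.000113) in PS/E4H. Of the 50-base windows in Ctsd transcripts, 32.4% also occur in the overlapping gene Gm49369, which had 0 counts in every mouse, so how the counting divided those reads bears on the level of Ctsd.

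Ctse, the second aspartic protease, is known from endosomes of immune cells and stomach and was close to absent. Its counts were 34, 4 and 0 in E2H, 0, 0 and 14 in E3H, and 8, 11 and 0 in E4H mice. The PS19 mice had 22, 28, 37 and 49 counts in PS/E2H, 20, 41, 44 and 73 in PS/E3H, and 91, 48, 45 and 26 in PS/E4H. The PS/E3H and PS/E4H mice all exceeded their parental lines, while in E2H 1 mouse with 34 counts lay within the PS/E2H range. Ctse passed in PS/E4H alone among the single lines, at 3.24 ± 0.83 (adjusted p = 0.0263, edgeR), and its values were 3.36 ± 1.04 (adjusted p = 0.0904) in PS/E3H and 1.63 ± 0.97 (adjusted p = 0.623) in PS/E2H. With parental counts this low, the fold depends on a handful of fragments, and the PS/E4H call was lost without E4H replicate 1, E4H replicate 2 or PS/E4H replicate 1. The PS/E2H value was 4.002 without E2H replicate 1 and 1.05 without E2H replicate 3. In PS/E3H, Ctse passed without PS/E3H replicate 1 or E3H replicate 3, and without the latter the remaining E3H mice both had 0 counts. Over all 21 mice the Ctse value was 2.68 ± 0.63 (adjusted p = 0.00359, edgeR). Because Ctse passed the count filter through PS19 mice alone, its p-values are not support for a rise.

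Of the cysteine proteases, Ctsb (endopeptidase and dipeptidyl carboxypeptidase) and Ctsl (endopeptidase) rose least among the members that passed in all 3 lines. Ctsb FPKM was 100.6 to 115 over the 9 parental mice and 136 to 202 over the 12 PS19 mice, with no overlap. The log2 fold change of Ctsb was 0.46 ± 0.082 (adjusted p = 0.0424, edgeR) in PS/E2H, 0.68 ± 0.10 (adjusted p = 0.00847) in PS/E3H and 0.74 ± 0.074 (adjusted p = 0.00031) in PS/E4H. Ctsl FPKM was 12.8 to 17.1 in parental and 20.3 to 28.5 in PS19 mice, again without overlap. Its log2 fold change was 0.53 ± 0.091 (adjusted p = 0.0366), 0.68 ± 0.10 (adjusted p = 0.00721) and 0.86 ± 0.082 (adjusted p = 0.000226) in the same order. Of the 50-base windows of Ctsl transcripts, 6.46% are shared with other genes, chiefly the pseudogene Gm49230, which had at most 1 count.

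Ctss, the endopeptidase of antigen-presenting cells, had the largest fold of any member with more than a few counts in PS/E4H and over all mice. Its FPKM was 63.4, 78.0 and 59.4 in E2H, 54.8, 57.7 and 60.7 in E3H, and 51.0, 49.9 and 56.5 in E4H mice. It was 146, 141, 156 and 132 in PS/E2H, 102, 168, 172 and 194 in PS/E3H, and 236, 173, 201 and 225 in PS/E4H mice. Each PS19 mouse was above each parental mouse, with PS/E3H replicate 1 the lowest of the PS19 mice. The pseudogene Hmgb1-ps5, which overlaps Ctss on the same strand, had 3 to 16 counts. Ctss rose by 1.07 ± 0.12 (2.10-fold; adjusted p = 0.00576, edgeR) in PS/E2H, 1.48 ± 0.17 (2.79-fold; adjusted p = 0.00238) in PS/E3H and 1.99 ± 0.10 (3.98-fold; adjusted p = 1.32e-05) in PS/E4H, and by 1.51 ± 0.12 (2.85-fold; adjusted p = 8.34e-09) over all mice.

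Ctsk, the collagen-degrading cathepsin of osteoclasts and the chromosome 3 neighbour of Ctss, gave a different picture. Its FPKM was 1.08, 2.03 and 2.28 in E2H, 2.14, 2.39 and 2.10 in E3H, and 1.83, 1.71 and 2.08 in E4H mice. The PS19 values were 3.12, 2.07, 2.39 and 1.19 in PS/E2H, 2.16, 2.46, 1.68 and 3.85 in PS/E3H, and 2.96, 2.16, 1.74 and 3.11 in PS/E4H. PS19 and parental mice overlapped in each line, although the highest value of each line was in a PS19 mouse. The log2 fold change was 0.25 ± 0.35 (adjusted p = 0.873, edgeR), 0.23 ± 0.26 (adjusted p = 0.671) and 0.41 ± 0.21 (adjusted p = 0.223) in the 3 lines and 0.30 ± 0.17 (adjusted p = 0.222) over all mice.

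Ctsh (an aminopeptidase), Ctsc (the dipeptidyl peptidase that activates granule serine proteases) and Ctsz (a carboxypeptidase) rose by amounts between those of Ctsl and Ctss. Ctsh FPKM was 2.56, 2.94 and 2.57 in E2H, 2.57, 3.39 and 2.78 in E3H, and 1.92, 1.81 and 2.19 in E4H mice. In PS19 mice it was 5.32, 5.48, 5.84 and 4.36 in PS/E2H, 3.67, 7.05, 6.31 and 7.63 in PS/E3H, and 8.28, 6.51, 4.88 and 6.81 in PS/E4H. The E4H mice were the lowest of the parental mice and the PS/E4H mice held the single highest value. The log2 fold change of Ctsh was 0.93 ± 0.13 (adjusted p = 0.0164, edgeR) in PS/E2H, 1.10 ± 0.20 (adjusted p = 0.017) in PS/E3H and 1.75 ± 0.16 (3.36-fold; adjusted p = 0.000169) in PS/E4H.

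Ctsc FPKM was 1.52, 1.64 and 1.77 in E2H, 1.82, 1.59 and 1.92 in E3H, and 1.47, 1.29 and 1.44 in E4H mice. It was 2.52, 2.61, 4.20 and 2.36 in PS/E2H, 2.07, 4.50, 3.59 and 4.46 in PS/E3H, and 4.68, 4.15, 3.79 and 3.71 in PS/E4H mice. The groups of each line did not overlap, yet 3 of the 4 PS/E2H mice and PS/E3H replicate 1 stayed at 2.61 or below. Its log2 fold change was 0.80 ± 0.19 in PS/E2H, which did not pass (adjusted p = 0.111, edgeR), 1.06 ± 0.22 (adjusted p = 0.0255) in PS/E3H and 1.55 ± 0.11 (2.94-fold; adjusted p = 5.13e-05) in PS/E4H.

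Ctsz FPKM was 26.7 to 34.9 over the parental mice and 46.6 to 102 over the PS19 mice, with the lowest PS19 values of 46.8 in PS/E2H and 46.6 in PS/E3H. Its log2 fold change was 0.93 ± 0.15 (adjusted p = 0.0291, edgeR) in PS/E2H, 1.29 ± 0.15 (adjusted p = 0.00251) in PS/E3H and 1.59 ± 0.12 (adjusted p = 6.49e-05) in PS/E4H. Part of Ctsz is overlapped on the opposite strand by Nelfcd, which had 2472 to 3368 counts.

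Ctsa encodes the serine carboxypeptidase that also protects beta-galactosidase and neuraminidase in the lysosome. Its FPKM was 20.2 to 22.4 in the parental mice and 25.1 to 37.8 in the PS19 mice, without overlap. The log2 fold change was 0.39 ± 0.098 in PS/E2H, which did not pass (adjusted p = 0.126, edgeR), 0.61 ± 0.084 (adjusted p = 0.00504) in PS/E3H and 0.70 ± 0.079 (adjusted p = 0.000543) in PS/E4H. Ctsa and Ctsb overlap expressed genes on the opposite strand (Pltp and Neurl2, and Fdft1). The library kit keeps strand, but whether the counting used it is not given in the sources used here.

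Calls in the APOE2 line were the most fragile. When 1 mouse was left out, the number of members that rose in PS/E2H fell from 6 to 1 without E2H replicate 1 or E2H replicate 3, to 2 without PS/E2H replicate 1, and to 3 without PS/E2H replicate 2 or 3. Over these 7 fits, Ctss kept its call in 7, Ctsd in 5, Ctsh in 4, Ctsz in 2, and Ctsb and Ctsl in 1 each, while the direction stayed positive for all of them. In PS/E3H the count ranged from 4, without E3H replicate 1, to 9. There Ctsc kept its call in 2 of 7 fits and Ctsh in 4, and Ctsb and Ctsl lost theirs without E3H replicate 1. In PS/E4H 8 or 9 members rose whichever mouse was left out, and over all 21 mice 9 rose each time. The share of all genes that passed was not counted in these fits, so their counts of members cannot be set against a background.

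Markers of several cell types moved with these changes, and those of others did not pass. The 9 microglial markers (Aif1, Cx3cr1, P2ry12, Tmem119, Csf1r, Itgam, C1qa, C1qb and Fcrls) had a summed FPKM of 149 to 184 in E2H, 145 to 151 in E3H and 134 to 137 in E4H mice, and of 292 to 375, 262 to 420.3 and 382 to 515 in PS/E2H, PS/E3H and PS/E4H. Of these markers 3, 7 and 8 rose in the 3 lines, with a median log2 fold change of 0.60, 0.79 and 1.02. P2ry12 did not pass in any line (-0.27, 0.015 and 0.061), and in PS/E4H every listed microglial marker other than P2ry12 rose. The 5 astrocyte markers had a summed FPKM of 126 to 159 in parental mice and 313 to 696 in PS19 mice, and 1, 5 and 5 of them rose. The 6 border macrophage markers summed to 1.78 to 3.55 in parental mice and 3.80 to 7.40 in PS19 mice. In the 3 lines 0, 3 and 4 of them rose. The median log2 fold change of these 6 markers was 1.29, 1.22 and 1.33, above the microglial median in each line. All 6 were positive with an unadjusted p under 0.05 (edgeR) in each line. In the fit of all mice with the APOE line as covariate, all 6 rose, with a median of 1.29. In that fit 8 of the 9 microglial markers rose, with a median of 0.81. Neutrophil and monocyte markers reached 12.1 in 1 E2H mouse, 33.2 in PS/E3H and 19.3 in PS/E4H mice against a group median of at most 3.58, with Ly6g at 3 counts or fewer in E3H, E4H and PS/E2H. Of the 5 with enough counts to be tested, 0, 0 and 1 rose in the 3 lines. Their median log2 fold changes were -0.30, 2.775 and 1.46. The 5 oligodendrocyte markers summed to 616 to 841 FPKM in parental and 731 to 1138 FPKM in PS19 mice, and 0, 5 and 4 of them rose in PS/E2H, PS/E3H and PS/E4H. The 6 neuronal markers summed to 869 to 963 FPKM in parental and 754.5 to 926 FPKM in PS19 mice, and 0, 0 and 3 of them fell, with 1 higher in PS/E4H. Neurod6 fell in PS/E4H, by 0.72 on the log2 scale (adjusted p = 0.0113, edgeR), and did not pass in the other lines. Of the endothelial, choroid plexus and T cell markers with enough counts to be tested, 0 passed in any of the 3 lines. The part of the cell types in the cathepsin changes was not tested.

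Genes that restrain, mature or accompany cathepsins were followed through 3 lists. Of the 10 inhibitors (cystatins, stefins and propeptide-like inhibitors), 6 had enough counts to be tested over all 21 mice, and 4 rose and 0 fell. Cst7, which encodes cystatin F, an inhibitor of cathepsin C and other cysteine cathepsins in immune cells, was at 0.158 to 1.04 FPKM in parental mice and 7.60 to 22.4 FPKM in PS19 mice. It rose by 4.92 ± 0.31 on the log2 scale (30.3-fold; adjusted p = 5.02e-10, edgeR), more than any cathepsin gene. Ctla2b, a propeptide-like inhibitor, rose by 1.17 ± 0.21, Cst3, the secreted cystatin C, by 0.63 ± 0.096, and Cstb, the intracellular cystatin B, by 0.35 ± 0.083. Cst6 and Ctla2a did not pass, at -0.21 ± 0.12 and 0.42 ± 0.26. The median log2 fold change of the 6 tested genes was 0.52.

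Among the 13 other cathepsin genes, 3 were tested and 2 rose. Ctso rose by 0.34 ± 0.059 (adjusted p = 0.000205, edgeR) and Ctsf by 0.20 ± 0.048 (adjusted p = 0.00433), both less than the smallest rise among the members that passed, and Ctsw, a lymphocyte cathepsin at 0 to 0.408 FPKM, did not pass, at 0.23 ± 0.67. Of the 16 genes for processing, delivery and partners, all 16 were tested, 8 rose and 0 fell, with a median of 0.23. Grn, whose product progranulin is cleaved by cathepsins and supports them in the lysosome, rose by 0.97 ± 0.072 (adjusted p = 3.85e-09). Lgmn, the asparaginyl endopeptidase that cleaves several cathepsins to their mature form, rose by 0.61 ± 0.062, and the lysosomal membrane genes Lamp2 and Lamp1 by 0.56 ± 0.072 and 0.46 ± 0.050.

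The other 4 genes that passed on that list were Glb1, M6pr, Nagpa and Psap, at 0.19 to 0.30. The regulators Tfeb, Tfe3 and Mitf did not pass over all mice, at 0.22 ± 0.099, 0.11 ± 0.042 and 0.27 ± 0.16, and neither did the genes for the phosphotransferase that makes the mannose-6-phosphate tag (Gnptab and Gnptg), at -0.053 ± 0.045 and 0.0037 ± 0.045. In the single lines, 2, 5 and 8 genes of the processing list, 1, 3 and 4 inhibitors and 0, 1 and 2 of the other cathepsins rose in PS/E2H, PS/E3H and PS/E4H, and 0 fell, where 0.669%, 3.35% and 8.62% of all genes rose.

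**Figure D4:**
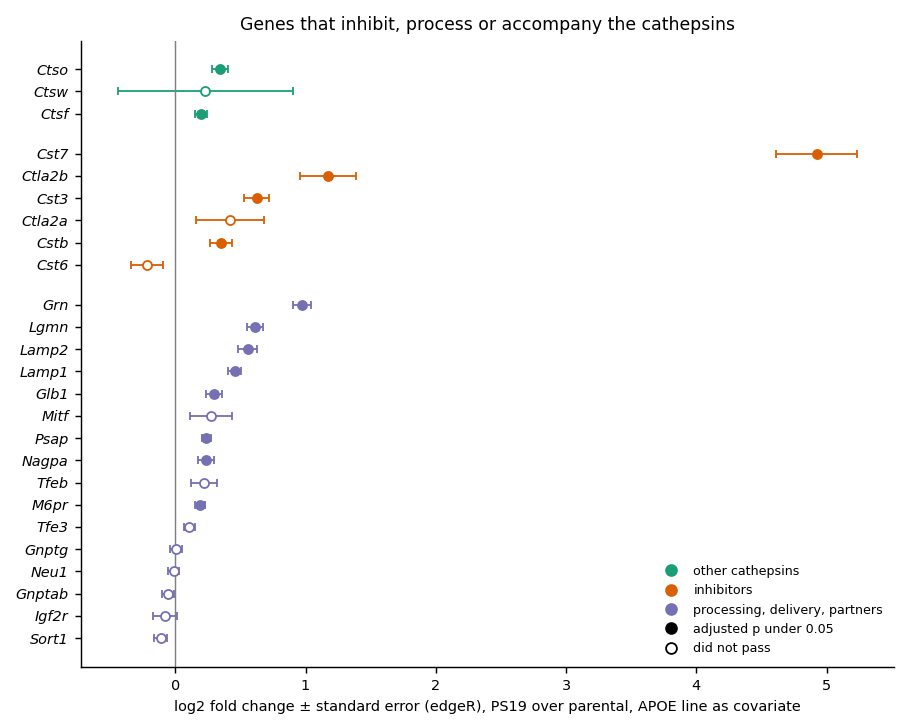
log2 fold change ± standard error (x axis, edgeR) in PS19 over parental mice with the APOE line as covariate for each tested gene (y axis) of 3 lists: other cathepsins, inhibitors, and genes for processing, delivery and partners, with filled points past an adjusted p of 0.05. Cst7 stands at 4.92, Ctla2b at 1.17 and Grn at 0.97, and the other genes lie between -0.21 and 0.63.

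The comparisons among parental mice ask whether cathepsin levels differ between the human APOE lines without the tau transgene. Each allele was carried by 1 line, so it cannot be told apart from other differences between the lines. E4H held 1 female and the E2H and E3H mice were all male, and the part of sex was not tested. Ctse had too few counts to be tested in these comparisons, and of the other 9 members 0 passed in any of the 3. For E2H over E3H, edgeR passed 0.178% of genes and 0 members, with 1 member at an unadjusted p under 0.05 (14.1% of all genes), and DESeq2 and limma also passed 0. That member was Ctss, at 0.31 ± 0.13 (adjusted p = 0.323), and its value was 0.14 without E2H replicate 2, the mouse with the highest Ctss of that group. For E4H over E3H, edgeR passed 0.162% of genes and 0 members, with 2 at an unadjusted p under 0.05 (6.67% of genes): Ctsh at -0.52 ± 0.12 (adjusted p = 0.3025) and Ctsc at -0.31 ± 0.12 (adjusted p = 0.666). DESeq2 passed Ctsh as lower in E4H (-0.52, adjusted p = 0.0312), and limma passed 0 members (adjusted p = 0.379 to 0.623 for Ctsh over its 3 settings). The share of all genes that DESeq2 passed was not counted in any comparison, so its calls of members cannot be set against a background.

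For E4H over E2H, edgeR passed 0.216% of genes and 0 members, with 3 at an unadjusted p under 0.05 (12.4% of genes): Ctsh at -0.50 ± 0.14 (adjusted p = 0.346), Ctss at -0.41 ± 0.13 (adjusted p = 0.363) and Ctsd at -0.26 ± 0.11 (adjusted p = 0.39). DESeq2 and limma passed 0. Without E2H replicate 2 the values were -0.40 for Ctsh, -0.24 for Ctss and -0.13 for Ctsd. The median over the 9 genes was -0.25, where that of all genes was 0.0027, and 1 of the 9 differences was positive. In FPKM, all 3 E4H mice were below all 3 E2H mice for 6 members (Ctsa, Ctsc, Ctsd, Ctsh, Ctss and Ctsz; 8.7% of all genes), and below all 3 E3H mice for 4 (Ctsc, Ctsd, Ctsh and Ctsk; 9.62%). These comparisons share mice, so their members are not independent of each other.

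Among the PS19 mice the same question was asked in the presence of tau. For PS/E2H over PS/E3H, edgeR passed 0.113% of genes and 0 members, 0 of which had an unadjusted p under 0.05 (11.7% of genes), and DESeq2 and limma passed 0. The 10 differences ran from -0.29 for Ctsc to 0.01 for Ctsl. For PS/E4H over PS/E3H, edgeR passed 0.0197% of genes and 0 members, with 1 at an unadjusted p under 0.05 (6.51% of genes), which was Ctss at 0.41 ± 0.16 (adjusted p = 0.759), and DESeq2 and limma passed 0. Without PS/E3H replicate 1, the lowest PS/E3H mouse, the Ctss difference was 0.25.

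For PS/E4H over PS/E2H, edgeR passed 0.119% of genes and 0 members, with 4 at an unadjusted p under 0.05 (12.3% of genes). Ctss was 173 to 236 FPKM in PS/E4H and 132 to 156 FPKM in PS/E2H, the single member whose groups did not overlap (3.34% of all genes were higher in this way). Its difference was 0.51 ± 0.088 (1.42-fold; adjusted p = 0.0699, edgeR). DESeq2 passed it (0.51, adjusted p = 0.000101, with no share of all genes counted), limma did not (adjusted p = 0.156 to 0.337 over its 3 settings), and edgeR passed 1 member when PS/E4H replicate 2 was left out. The others were Ctsz at 0.40 ± 0.14, Ctsc at 0.46 ± 0.17 and Ctsb at 0.18 ± 0.073, with adjusted p = 0.345 to 0.373. All 10 differences were positive with a median of 0.31, against -0.00031 over all genes. In the same comparison the 9 microglial markers were all positive with a median of 0.32, and edgeR passed 0 of them, with 2 at an unadjusted p under 0.05. The 5 oligodendrocyte markers were all positive as well, with a median of 0.39 and 3 at an unadjusted p under 0.05, and 4 of the 5 astrocyte markers were positive, with a median of 0.22 and 2 at that threshold, and edgeR passed 0 of either list. Medians were also positive for neutrophil and monocyte (0.86), choroid plexus (0.31) and border macrophage markers (0.045). They were negative for endothelial (-0.11), forebrain (-0.11), neuronal (-0.041) and T cell markers (-0.016), and 0 of all these passed. Of the PS/E4H mice 2 were female and of the PS/E2H mice 1, and the part of sex, of age and of these cell types was not tested.

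Whether the PS19 change itself differed between APOE lines was tested with an interaction term. In each of the 3 interactions edgeR passed 0 members and 0% of all genes. For APOE2 minus APOE3, 0 members had an unadjusted p under 0.05 (5.72% of genes), and for APOE4 minus APOE3 there were 2 (3.81% of genes), Ctsh at 0.64 ± 0.28 and Ctss at 0.51 ± 0.21 (adjusted p = 0.9999 for both). DESeq2 and limma passed 0 in both.

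For APOE4 minus APOE2, all 10 differences were positive, the median was 0.62 (0.58 without Ctse) against 0.013 over all genes, and 8 members had an unadjusted p under 0.05, where 10.1% of all genes did. The largest among well-counted genes were Ctss at 0.92 ± 0.16 (adjusted p = 0.182, edgeR) and Ctsh at 0.81 ± 0.21 (adjusted p = 0.293). Ctsc stood at 0.75 ± 0.23, Ctsz at 0.65 ± 0.21, Ctsd at 0.58 ± 0.21, Ctsl at 0.34 ± 0.12, Ctsa at 0.31 ± 0.13 and Ctsb at 0.28 ± 0.11, with adjusted p = 0.353 to 0.435. DESeq2 passed 2 members, Ctss (0.92, adjusted p = 0.000289) and Ctsh (0.81, adjusted p = 0.0497), while limma passed 0. The share of all genes that DESeq2 passed was not counted, and the shares given are those of edgeR. This interaction holds the same mice as the other contrasts of APOE4 with APOE2: for Ctss, the parental difference of -0.41 and the PS19 difference of 0.51 both enter it. The 9 microglial markers were also all positive here, with a median of 0.50, 4 at an unadjusted p under 0.05 and 0 past the adjusted threshold, and C1qa at 0.93 ± 0.15 (adjusted p = 0.182). The 5 oligodendrocyte markers were all positive, with a median of 0.51 and all 5 at an unadjusted p under 0.05, and the 5 astrocyte markers were all positive, with a median of 0.22 and 1 at that threshold, and 0 of either list passed. Medians were also positive for neutrophil and monocyte (1.18), choroid plexus (0.33) and border macrophage markers (0.19). They were negative for forebrain (-0.26), endothelial (-0.16), neuronal (-0.077) and T cell markers (-0.069), and 0 of all these passed. The part of these cell types in the cathepsin values was not tested.

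**Figure D5:**
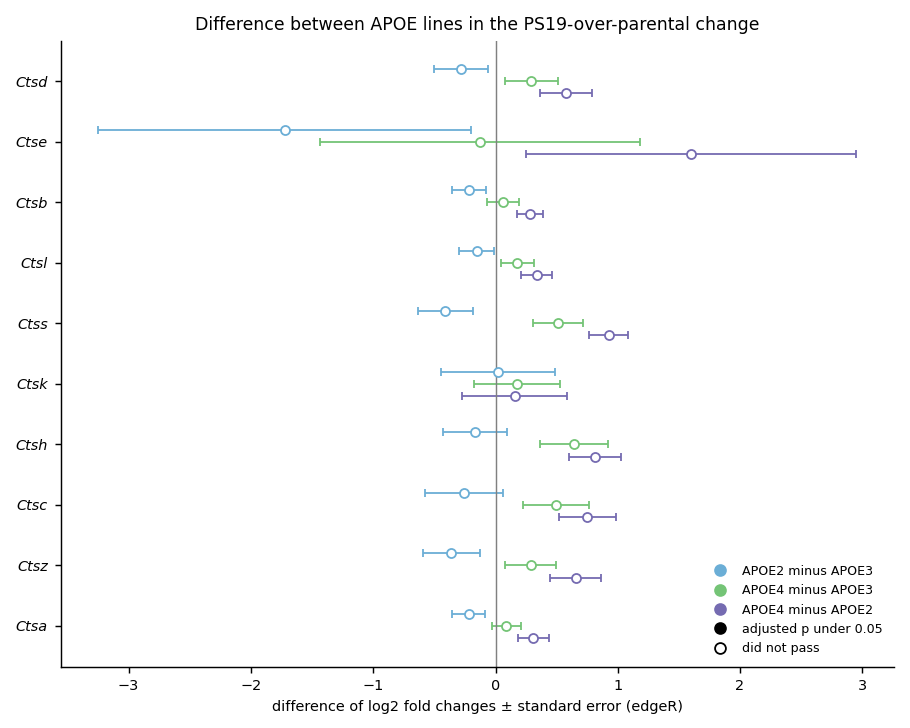
Difference between APOE lines in the log2 fold change of PS19 over parental mice, ± standard error (x axis, edgeR), for the 10 genes (y axis) and the 3 pairs of lines. All points are open because none passed an adjusted p of 0.05, and the APOE4 minus APOE2 points are positive for all 10 genes, from 0.16 for Ctsk to 1.60 for Ctse.

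Within groups, members varied together from mouse to mouse. After the mean of each group was subtracted from log2 CPM, Ctsd and Ctsz had a Pearson r of 0.957 over the 21 mice, Ctsa and Ctsz 0.919, Ctsh and Ctsz 0.904, and Ctsb and Ctsl 0.892. Ctse correlated weakly with the rest, from -0.40 with Ctsk to 0.28 with Ctsb, and Ctsk from 0.35 with Ctsc to 0.65 with Ctsa among the other members. All of these values share libraries and depth and are given as descriptions.

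Among 22863 genes, the genes most like each member in this measure included other lysosomal and phagocyte genes. Ctsd was followed by Ctsz, Mvp (0.952) and the macrophage lysosomal glycoprotein Cd68 (0.944), and Ctsz by Ctsd, Cd68 (0.945) and Ptpn6 (0.937). For Ctsh they were Cd63 (0.947), Mvp (0.918) and Cln3 (0.909), and for Ctsa Naglu (0.934), Ctsz and Prdx6 (0.9). Ctsb was most like Ptx3 (0.912), Lgmn (0.9) and Ctsl, and Ctsl most like Ctsb, Cmtm3 (0.845) and Ptx3 (0.834). Ctss was most like the MHC class I gene H2-D1 (0.897), the complement gene C1qa (0.889) and Ctsb (0.874), and Ctsc most like Naip2 (0.904), Mpeg1 (0.899) and Lyz2 (0.888). Adora3 (0.851) and Cxcl10 (0.845) were among the genes most like Ctsk, and Ctse, with its few counts, was closest to Fcgr4 (0.76).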

How the data were processed

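Counts and FPKM of 21 forebrain libraries were used. Per the labels and the study's methods, poly(A) libraries that keep strand were sequenced, and the authors used Cutadapt for trimming, HISAT2 for alignment to GRCm38 and StringTie for quantification, and the submitters' processing notes also name DESeq2 and edgeR. The authors deposited counts per gene, whole numbers without normalization, and FPKM values scaled for length and library size. How the counts were derived is not given in the sources used here.

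Gene names and positions are those of GENCODE M21. Each comparison was fitted to the counts of all genes of its own groups with edgeR 4.0.16 in R 4.3.3 (TMM, filterByExpr with a minimum count of 10 and minimum total of 15, glmQLFit and glmQLFTest), and adjusted by Benjamini-Hochberg over all genes tested. A gene passed at an adjusted p under 0.05. Standard errors are the log2 fold change divided by the square root of F. CPM for correlations had a prior count of 2. Alternatives used DESeq2 1.42.0, limma 3.58.1 on log2(FPKM + 1) or log2(FPKM + 0.1), RLE normalization, no filter, 1 mouse left out, all mice in 1 fit, and a replicate block. Scripts were tested on simulated data. Figures used Python 3.11.15 and matplotlib 3.10.9.

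The members, the 3 lists, the markers and the 2 motifs were chosen with earlier results of these data known, all members were to be named, and from each list up to 4 genes with the largest change in each direction among those that passed over all mice; further list genes, markers and comparisons were named after their values were seen. The total count had a median of 63751715 per mouse, and precision rests on 3 or 4 mice per group. The 27 pairs of mice within groups differed by a chi-square of 17.9 to 73.1 per gene, far above sampling noise, so no pair was a repeat of 1 library. All mice were kept, which these values do not decide. Mice with the same replicate number are separate animals, and the deviations of same-numbered mice correlated at -0.12 to 0.095, so the numbers were not treated as pairs. The number of columns left unmapped was 0. Some marker genes and 1 correlated gene are not reported here.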

Additional observations from a re-analysis of the deposited data

Results flagged for a closer look

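By Dixon's ratio of the gap to the range, at its 95% critical value, 2 of the 30 sets of 4 mice examined (10 genes in 3 PS19 groups) had a mouse far from the rest, and chance flags about 1 in 20 such sets. Both concern PS/E2H replicate 3. Its Ctsb was 169.7 FPKM, where the other 3 mice had 150.0 to 152 FPKM (ratio 0.904), and its Ctsc was 4.197 FPKM, where the others had 2.36 to 2.61 FPKM (ratio 0.864). The same mouse also held the highest PS/E2H values of Ctsd, Ctsl, Ctss, Ctsh and Ctsz. Without it, 3 members rose in PS/E2H over E2H instead of 6, with no share of all genes counted in that fit.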

How the results depend on the processing

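Of 636 log2 fold changes of single members refitted with 1 mouse left out, 596 kept their direction and side of the threshold, 35 no longer passed, 3 came to pass and 2 changed sign; of 478 under the other alternatives, 439, 28, 10 and 1 did so. The 6 members of PS/E2H over E2H became 3 without the count filter, 1 with limma on log2(FPKM + 1) without a filter, 2 with the 2-fold limit, and 1 to 6 with 1 mouse left out. The 8 members of PS/E3H over E3H became 0 with limma without a filter, 5 with the 2-fold limit, and 4 to 9 with 1 mouse left out. DESeq2 passed 1 member in E4H over E3H, 1 in PS/E4H over PS/E2H and 2 in APOE4 minus APOE2, where edgeR passed 0 and the DESeq2 share of all genes was not counted. Leaving out 1 mouse gave 0 to 1 in PS/E4H over PS/E2H. The cause was not tested, except that without a filter more genes enter the adjustment. The share of all genes that passed was not counted in any refit, with 1 mouse left out or under the other alternatives. Ctsk changed sign in PS/E3H over E3H, to -0.053 with the replicate block and from -0.042 (without PS/E3H replicate 4) to 0.40 with 1 mouse left out, and in PS/E2H over E2H, where leaving out 1 mouse gave -0.022 (without E2H replicate 1) to 0.45. With the replicate block, 5, 7, 8 and 9 members rose in PS/E2H, PS/E3H, PS/E4H and all mice, and 0 passed elsewhere; the numbers do not pair the mice. Precision is limited by 3 or 4 mice per group, by counts of at most 91 for Ctse and 444 for Ctsk, and by the lack of sex and age for single mice. Counting the members other than Ctse, chosen after the data were seen, changed the count in PS/E4H over E4H and over all mice from 9 to 8 and in no other comparison.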
